A study of Homo sapiens with 6 samples.

Results

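The sphingosine-1-phosphate (S1P) receptor and enzyme genes are 10 genes, taken by symbol from the reference chromosomes of a table of 64253 genes. They are the receptor genes S1PR1 to S1PR5, the kinase genes SPHK1 and SPHK2, the lyase gene SGPL1 and the phosphatase genes SGPP1 and SGPP2. RNA was sequenced from H69 cells, a line of human cholangiocytes (the epithelial cells lining the bile ducts), at passages 30 to 32. In 3 libraries the cells had received recombinant human TGF-beta, a cytokine, at 10 ng/ml for 16 h, and in the other 3 they had received vehicle, both in the medium used for H69. All libraries come from 1 cell line, and nothing in the labels tells whether replicates were separate cultures. The p-values cover only the spread between these libraries, which may be technical.

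S1P is a signalling lipid made by phosphorylating sphingosine, the backbone released from ceramide. SPHK1 and SPHK2 make it, SGPP1 and SGPP2 return it to sphingosine, and SGPL1 cleaves it irreversibly, which is the exit from sphingolipid metabolism. Exported S1P acts on a family of 5 G protein-coupled receptors. In liver, S1PR2 is also known as a receptor for conjugated bile acids, and SPHK1 is known in several tissues as a gene that TGF-beta can induce.

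With TGF-beta, S1PR5 and SPHK1 were the members that stood furthest above vehicle, S1PR1 stood furthest below, and the levels of the receptors and of the kinases changed their order. All 10 members passed the filter on low counts. In the fit over all 20992 genes tested, 5 members (S1PR2, S1PR3, S1PR5, SPHK1 and SGPL1) were past an adjusted p of 0.05 as higher and 3 (S1PR1, SPHK2 and SGPP1) as lower, where 40.1% of all tested genes were called, 19.7% higher and 20.4% lower. S1PR4 and SGPP2 were not called. The group was chosen by gene name with the log2 fold changes of these libraries in view, so its changes are given as descriptions, without p-values, and nothing is read from the count. The median log2 fold change was 0.18 over the members and -0.01 over all genes tested. In bulk samples, fewer cells expressing a gene and less RNA per cell cannot be told apart.

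**Figure D1:**
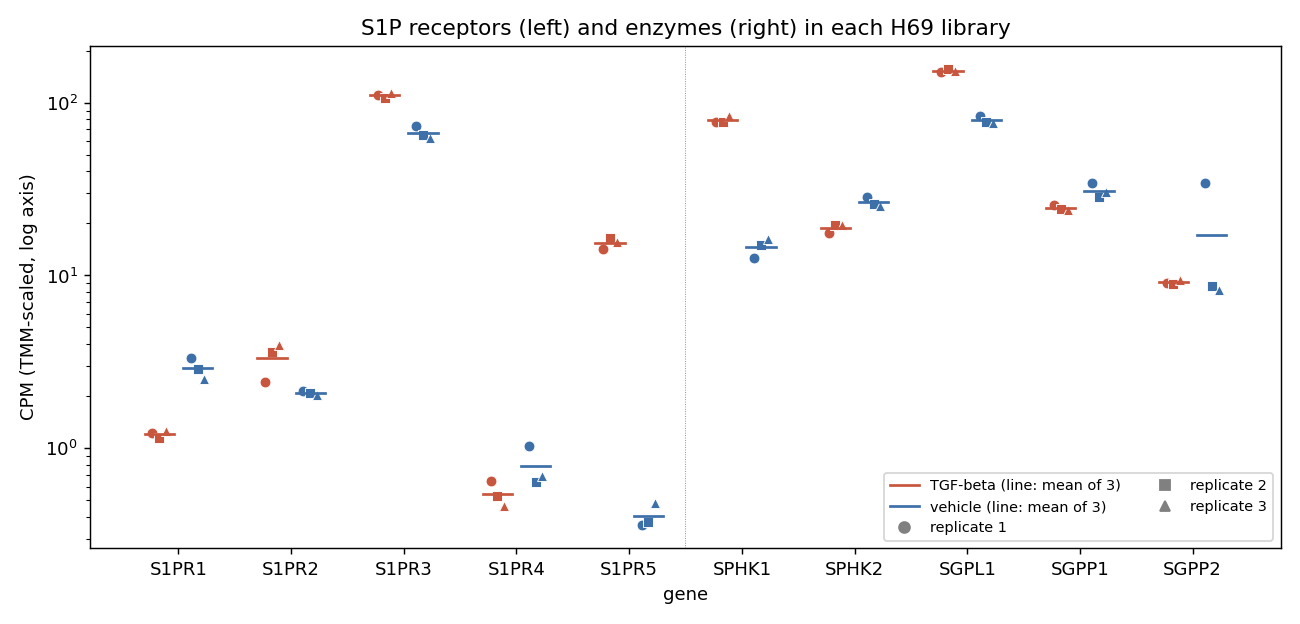
CPM (reads of a gene scaled to library size with TMM, log axis) of each receptor and enzyme gene in each library, TGF-beta left of vehicle, with a line at the mean of 3 libraries. S1PR5 lies between 14.3 and 16.5 CPM with TGF-beta and between 0.358 and 0.482 CPM in vehicle, and 1 vehicle library stands at 34.5 CPM of SGPP2, against 8.65 and 8.24 CPM in the other vehicle libraries.

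Promoter windows of S1PR5 and SPHK1 are shown because these genes had the largest rises. RefSeq windows (GRCh38.p14) reach from 250 bases before to 50 after a gene start. Windows were available for 9 of the 10 members, 15 windows in all. Capitals mark matches, on either strand, to CAGAC (the core of the SMAD-binding CAGA box), GTCTAGAC (a palindromic SMAD element), GGCGC (a GC-rich SMAD motif) and TGANTCA (the AP-1 site). GGCGC matches on opposite strands can overlap, as in GGCGCC. SMAD proteins carry the TGF-beta signal to DNA, and AP-1 factors are known to act beside them at some target genes. The 2 windows of S1PR5 lie on the minus strand at chr19:10517916-10518215 and chr19:10517398-10517697. The 3 windows of SPHK1 lie on the plus strand at chr17:76382954-76383253, chr17:76384359-76384658 and chr17:76385028-76385327. All lie inside the SPHK1 row of the count data, which starts at 76376584, and positions are counted from each window's own RefSeq start. PRPSAP1, on the opposite strand and not called, covers the upstream window and begins inside the middle one, at 76384521. Letters in those windows therefore do not belong to SPHK1 alone.
S1PR5 upstream window: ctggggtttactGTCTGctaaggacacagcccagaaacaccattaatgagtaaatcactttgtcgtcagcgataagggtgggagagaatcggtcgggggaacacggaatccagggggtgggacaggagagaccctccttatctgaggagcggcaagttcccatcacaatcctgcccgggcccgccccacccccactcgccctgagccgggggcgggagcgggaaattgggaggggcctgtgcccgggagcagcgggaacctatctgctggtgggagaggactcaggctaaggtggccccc
S1PR5 downstream window: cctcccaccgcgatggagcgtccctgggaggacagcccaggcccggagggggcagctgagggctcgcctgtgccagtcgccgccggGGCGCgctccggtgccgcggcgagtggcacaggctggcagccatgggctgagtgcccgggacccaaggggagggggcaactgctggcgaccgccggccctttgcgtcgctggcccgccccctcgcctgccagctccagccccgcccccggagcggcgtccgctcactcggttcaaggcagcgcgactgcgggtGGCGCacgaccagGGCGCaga
SPHK1 upstream window: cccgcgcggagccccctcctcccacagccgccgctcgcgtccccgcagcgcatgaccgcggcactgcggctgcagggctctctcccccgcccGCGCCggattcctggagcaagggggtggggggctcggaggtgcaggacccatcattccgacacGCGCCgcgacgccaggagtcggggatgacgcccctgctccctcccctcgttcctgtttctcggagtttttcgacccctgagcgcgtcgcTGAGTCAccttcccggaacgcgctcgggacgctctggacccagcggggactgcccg
SPHK1 middle window: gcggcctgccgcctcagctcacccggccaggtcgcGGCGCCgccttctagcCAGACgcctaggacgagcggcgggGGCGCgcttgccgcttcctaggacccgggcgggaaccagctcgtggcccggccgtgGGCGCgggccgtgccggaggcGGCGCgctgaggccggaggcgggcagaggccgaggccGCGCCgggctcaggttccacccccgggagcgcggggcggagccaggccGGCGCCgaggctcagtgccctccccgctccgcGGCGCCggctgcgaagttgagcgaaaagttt
SPHK1 downstream window: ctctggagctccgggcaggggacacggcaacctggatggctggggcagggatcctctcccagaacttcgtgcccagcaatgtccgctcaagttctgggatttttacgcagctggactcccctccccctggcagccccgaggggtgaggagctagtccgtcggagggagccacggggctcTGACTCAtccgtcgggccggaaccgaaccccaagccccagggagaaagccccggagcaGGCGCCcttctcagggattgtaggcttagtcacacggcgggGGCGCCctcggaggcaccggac

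In the upstream S1PR5 window the only match was a CAGAC on the opposite strand, starting at -238 relative to the gene start, and the downstream S1PR5 window held 3 GGCGC matches. The SPHK1 windows held 2 (upstream), 10 (middle) and 4 (downstream) GGCGC matches, and the middle one also held a CAGAC, starting at -199. The AP-1 letters occurred in 2 of the 3 SPHK1 windows, starting at -6 in the upstream window and at -71 in the downstream window, and were not in the middle window. Of 35116 RefSeq windows of this length, 45.3% held CAGAC, 48.6% held GGCGC, 7.71% held TGANTCA and 0.202% held GTCTAGAC. No member window held GTCTAGAC, which says only that these letters are not in those windows. The other member with the AP-1 letters was SGPP2, starting at -63, and SGPP2 was not called. The matches describe letters and do not show that a factor binds there.

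Total counts ran from 37205862 to 54160521 per library, and 1 CPM stood for 35.7 to 56.2 reads. The first principal component of log2 CPM separated TGF-beta from vehicle and the second held vehicle replicate 1 at 36.6, with vehicle replicate 2 at -14.9 and vehicle replicate 3 at -18.7. PMEPA1, a TGF-beta-inducible gene that encodes a negative regulator of the pathway, averaged 705 ± 2.41 CPM with TGF-beta and 96.7 ± 7.58 CPM in vehicle (SD, n = 3 each), and SMAD7 and SKIL were also called higher. Scaling by library totals alone moved the median log2 fold change of all genes from -0.01 to -0.14 and the share of calls that were higher from 49.2% to 27.0%. CPM and the log2 fold changes of the main fit below are relative to TMM scaling. The deposited RPKM, their sums, and the limma fits on them carry no TMM factor. In limma on log2(RPKM + 1) and log2(RPKM + 0.1), 34.8% and 34.7% of calls were higher. All members kept their sign without TMM. Of 7 cholangiocyte markers, all tested, 2 were called higher and 3 lower by edgeR, as were 19.7% and 20.4% of all genes tested. The keratin gene KRT7 averaged 2966 ± 153 CPM with TGF-beta and 1538 ± 169 CPM in vehicle, and KRT8 was higher too (log2 fold change 0.51), whereas KRT18 and KRT19 were not called. The epithelial genes SOX9 (-1.76), CDH1 (-0.70) and EPCAM (-0.48) were lower. Of 6 fibroblast and mural markers, 5 were tested. PDGFRB (1.02), at 135 ± 5.42 CPM with TGF-beta and 66.9 ± 6.63 CPM in vehicle, and COL6A3 (0.77) were higher, PDGFRA (-0.72) and RGS5 (-0.47) were lower, DCN was not called, and LUM stayed under 0.1 CPM. Their sum was 141 to 151 CPM with TGF-beta and 71.6 to 85.5 CPM in vehicle, most of it PDGFRB. The part of these markers in any member's value was not tested.

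Among the receptors, S1PR5, a receptor known from natural killer cells and oligodendrocytes, measured 14.3, 16.5 and 15.6 CPM in TGF-beta replicates 1, 2 and 3, against 0.358, 0.374 and 0.482 CPM in vehicle replicates 1, 2 and 3. These CPM rest on 510, 747 and 603 reads with TGF-beta and on 15, 21 and 25 reads in vehicle. Every TGF-beta library lay far above every vehicle library. The fitted log2 fold change was 5.24 with a standard error (SE) of 0.13, a ratio of 37.8. On log2(RPKM + 1) and log2(RPKM + 0.1), scales that compress changes of scarce genes, the difference was 1.62 and 3.86. The gene lies on hg38 chromosome 19, 10512742 to 10517931 (ENSG00000180739), and overlaps no tested gene.

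The genes next to S1PR5 did not share the size of its change. The nearest tested protein-coding genes on the lower side were KEAP1, 9001 bases away, with a log2 fold change of -0.00 (SE 0.048), and PDE4A, with 0.50 (SE 0.072). On the higher side they were ATG4D, 25964 bases away, with 0.29 (SE 0.075), and KRI1, with 0.17 (SE 0.043). In edgeR's test PDE4A, ATG4D and KRI1 were called higher (adjusted p = 0.000352, 0.0114 and 0.00897), and KEAP1 was not (adjusted p = 0.973). Of all genes tested, 19.7% were called higher, and nothing is read from the count of neighbours. The calls of these neighbours were not followed through the alternative fits.

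Markers of natural killer cells and other lymphoid cells were near absent. Of 10 listed genes, CD3D and CD2 had no read in any library and 6 stayed under 0.1 CPM in all libraries, among them the natural killer genes GNLY and TBX21. Their summed level was 0.672 to 1.04 CPM with TGF-beta and 2.12 to 3.51 CPM in vehicle. NCAM1 made up most of it, except in TGF-beta replicate 1, where KLRD1 matched it at 0.336 CPM. The mean of NCAM1 was 0.507 ± 0.150 CPM with TGF-beta and 2.49 ± 0.697 CPM in vehicle. KLRD1, another natural killer cell gene, was at 0.336, 0.331 and 0.232 CPM in TGF-beta replicates 1, 2 and 3, against 0.167, 0.107 and 0.154 CPM in vehicle replicates 1, 2 and 3, or 6 to 15 reads a library, too few to be tested. The part of these markers in the S1PR5 value was not tested.

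Among tested protein-coding genes, those whose centred log2 CPM followed S1PR5 most closely over the 6 libraries were HNF4A, CHRNA9, KCNA7, KANK4 and CGB5, with root mean square differences of 0.138, 0.203, 0.282, 0.299 and 0.306. HNF4A, a hepatocyte transcription factor gene, averaged 36.1 ± 1.5 CPM with TGF-beta and 0.956 ± 0.0273 CPM in vehicle. CHRNA9, an acetylcholine receptor subunit gene, had 80, 97 and 84 reads with TGF-beta and 0, 0 and 1 read in vehicle. CGB5 belongs to a family of near-identical copies, so its reads may be split among them. The fitted log2 fold changes of the 5 genes, in the order given, were 5.24, 7.85, 4.72, 5.13 and 6.07, against 5.24 for S1PR5. The log2 CPM use a prior count of 2, which compresses changes of genes with few vehicle reads, such as CHRNA9 and CGB5. Their small differences from S1PR5 therefore do not mean equal fold changes. The likeness is dominated by the gap between the conditions, and the 6 libraries form 2 clusters, so no correlation is given.

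S1PR3, a receptor that couples to several classes of G protein, measured 111, 107 and 113 CPM in TGF-beta replicates 1, 2 and 3 and 73.3, 65.0 and 62.8 CPM in vehicle replicates 1, 2 and 3. The ranges did not overlap, as for 52.3% of all genes tested, and the log2 fold change was 0.72 (SE 0.059). It was the most abundant receptor transcript per length in every library. Its row, on hg38 chromosome 9 from 88991447 to 89005010 (ENSG00000213694), overlaps C9orf47, which was counted separately at 4.91 ± 0.220 CPM with TGF-beta and 3.23 ± 0.768 CPM in vehicle and has no row of its own in GENCODE 29, so the split of reads between them is uncertain.

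S1PR2, the bile acid-responsive receptor, measured 2.43, 3.60 and 3.97 CPM in TGF-beta replicates 1, 2 and 3, against 2.15, 2.10 and 2.04 CPM in vehicle replicates 1, 2 and 3. All TGF-beta libraries lay above vehicle, but replicate 1, with 87 reads, lay much closer to vehicle than replicates 2 and 3. The log2 fold change was 0.68 (SE 0.17). Without TGF-beta replicate 2 or 3 it was 0.62 and 0.54 and the call was lost, and on log2(RPKM + 1) it was 0.28. S1PR2, on hg38 chromosome 19 from 10223844 to 10231272 (ENSG00000267534), lies inside the span of DNMT1 on the same strand, and DNMT1 was at 306 ± 5.49 CPM with TGF-beta and 327 ± 12.6 CPM in vehicle. With a neighbour that abundant, reads of S1PR2 and DNMT1 may have been split uncertainly.

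S1PR1, the receptor best known from endothelium and lymphocyte egress, measured 1.23, 1.15 and 1.26 CPM in TGF-beta replicates 1, 2 and 3, against 3.32, 2.86 and 2.51 CPM in vehicle replicates 1, 2 and 3. The ranges were well apart and the log2 fold change was -1.25 (SE 0.15). The gene lies on hg38 chromosome 1, 101236888 to 101241518 (ENSG00000170989). Of its nearest tested protein-coding genes, the closest of them DPH5 at 210800 bases, DPH5 was lower (-0.38, SE 0.051), SLC30A7 was higher (0.25, SE 0.051), and RNPC3 and AMY2B were not called. Of 8 endothelial markers, 5 were tested: PECAM1 (-1.18), KDR (-0.99) and CLDN5 (-1.14) were called lower, as were 20.4% of all genes tested, while VWF (0.17, SE 0.25) and TEK (0.28, SE 0.24) were not called. Their summed level was 11.3 to 13.2 CPM with TGF-beta and 21.0 to 25.4 CPM in vehicle, most of it KDR, at 9.65 ± 0.838 CPM with TGF-beta and 19.2 ± 2.65 CPM in vehicle, while EMCN had no read and TIE1 stayed under 0.1 CPM. Their part in the S1PR1 value was not tested.

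S1PR4, a receptor of lymphoid cells, was the scarcest receptor with TGF-beta, at 0.644, 0.529 and 0.464 CPM in TGF-beta replicates 1, 2 and 3, against 1.03, 0.641 and 0.694 CPM in vehicle replicates 1, 2 and 3. S1PR4 lies on hg38 chromosome 19, 3172346 to 3180332 (ENSG00000125910). These values rest on 18 to 24 reads with TGF-beta and 36 to 43 reads in vehicle. The ranges overlapped, the log2 fold change was -0.51 (SE 0.25), and without vehicle replicate 1 it was -0.29. A difference of that size could not be told from the spread at this depth.

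**Figure D2:**
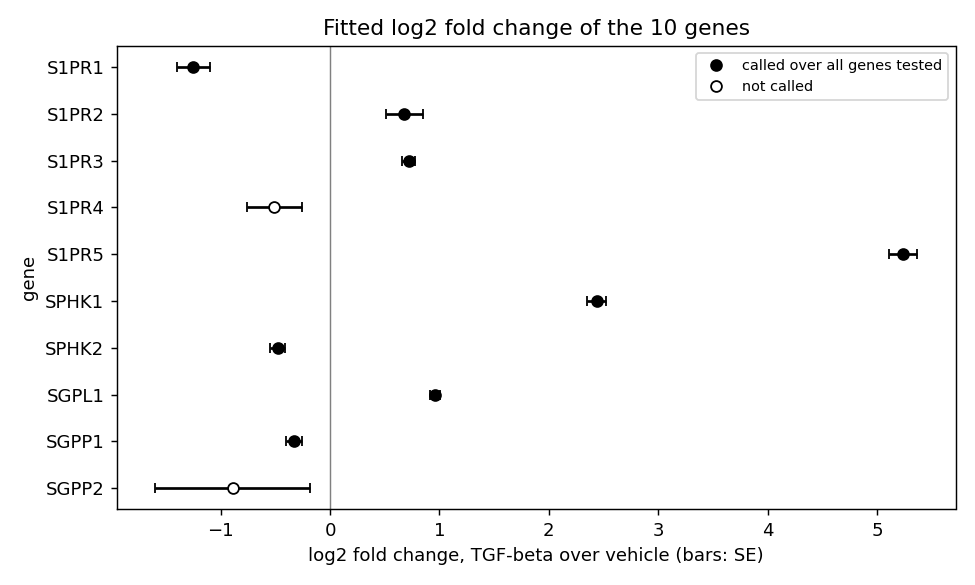
Fitted log2 fold change of each gene, TGF-beta over vehicle, with bars of 1 SE; filled points were called over all genes tested and open points were not. S1PR5 (5.24) and SPHK1 (2.44) lie furthest to the right, S1PR1 (-1.25) furthest to the left, and SGPP2 has the widest bar (SE 0.71).

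The make-up of the receptor transcripts differed between the conditions. By the authors' RPKM, which compare levels between genes per length, the 5 receptors summed to 8.55, 9.07 and 9.24 in TGF-beta replicates 1, 2 and 3 and to 5.28, 4.65 and 4.54 in vehicle replicates 1, 2 and 3. S1PR5 made up 25.4 ± 1.25% of that sum with TGF-beta and 1.32 ± 0.310% in vehicle (SD, n = 3 each). S1PR3 made up 58.3 ± 2.87% with TGF-beta and 69.6 ± 0.0737% in vehicle, although its own level was higher with TGF-beta. For S1PR1 the share was 1.83 ± 0.119% with TGF-beta and 8.55 ± 0.560% in vehicle. S1PR2 held 10.0 to 15.1% with TGF-beta and 15.2 to 16.9% in vehicle. All these shares depend on the gene lengths used, 1173 bases for S1PR2 and 8754 bases for S1PR3.

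**Figure D3:**
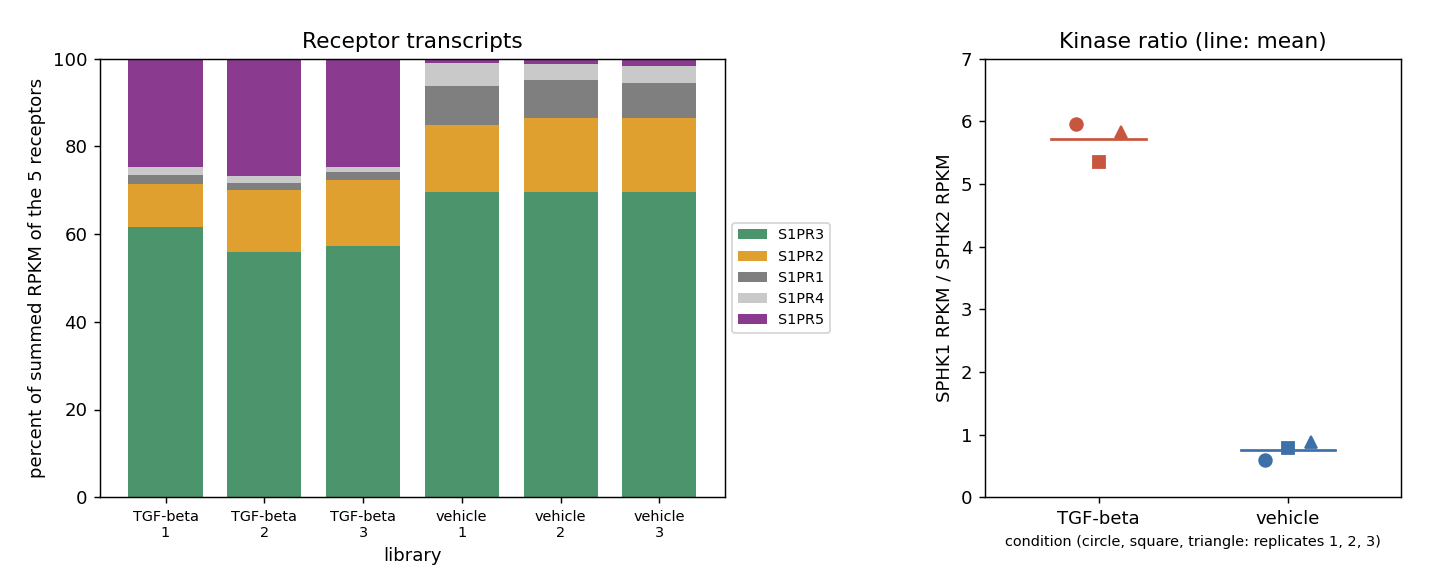
Left, percent of the summed RPKM of the 5 receptor genes held by each receptor in each library, TGF-beta first; right, RPKM of SPHK1 divided by that of SPHK2, one point per library with a line at the mean. S1PR5 holds 24.6 to 26.8% with TGF-beta and 1.06 to 1.67% in vehicle, and the kinase ratio averages 5.71 with TGF-beta and 0.757 in vehicle.

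Among the kinases, SPHK1, the mainly cytosolic kinase that can move to the plasma membrane, measured 76.9, 77.3 and 83.8 CPM in TGF-beta replicates 1, 2 and 3, against 12.6, 15 and 16.2 CPM in vehicle replicates 1, 2 and 3. Every TGF-beta library lay well above every vehicle library, with a log2 fold change of 2.44 (SE 0.086), a ratio of 5.41. SPHK1 lies on hg38 chromosome 17, 76376584 to 76387860 (ENSG00000176170). It overlaps PRPSAP1 on the opposite strand over 7938 bases, and PRPSAP1 measured 49.3 ± 0.964 CPM with TGF-beta and 53.4 ± 2.89 CPM in vehicle. UBE2O, which begins 1591 bases beyond SPHK1, measured 63.7 ± 1.07 CPM with TGF-beta and 62.2 ± 5.39 CPM in vehicle, and neither neighbour was called. Further out, QRICH2 was lower, at -0.40 (SE 0.12; adjusted p = 0.0184 by edgeR), and AANAT was not called.

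SPHK2, the kinase found in the nucleus and mitochondria, measured 17.5, 19.7 and 19.6 CPM in TGF-beta replicates 1, 2 and 3, against 28.5, 25.9 and 25.1 CPM in vehicle replicates 1, 2 and 3. It was lower in every TGF-beta library, with a log2 fold change of -0.48 (SE 0.070). It lies on hg38 chromosome 19, 48619291 to 48630717 (ENSG00000063176). Its ends overlap RPL18, at 421 ± 14.7 CPM with TGF-beta and 459 ± 42.1 CPM in vehicle, and DBP, at 3.51 ± 0.137 CPM with TGF-beta and 6.47 ± 0.883 CPM in vehicle. Both are on the opposite strand, and DBP was called lower too. AC022154.7, which overlaps 4842 bases of SPHK2, was not called (-0.01, SE 0.14).

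The kinases thus traded places. The RPKM of SPHK1 over that of SPHK2 was 5.96, 5.35 and 5.83 in TGF-beta replicates 1, 2 and 3 and 0.600, 0.791 and 0.881 in vehicle replicates 1, 2 and 3. SPHK2 was the more abundant kinase transcript in each vehicle library and SPHK1 in each TGF-beta library. Their summed RPKM was 8.72 ± 0.371 with TGF-beta and 3.39 ± 0.0595 in vehicle (SD, n = 3 each).

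Among the degrading enzymes, SGPL1, the S1P lyase, measured 151, 157 and 152 CPM in TGF-beta replicates 1, 2 and 3, against 83.9, 76.8 and 76.7 CPM in vehicle replicates 1, 2 and 3. The ranges were far apart, with a log2 fold change of 0.96 (SE 0.048). It lies on hg38 chromosome 10, 70815961 to 70881173 (ENSG00000166224), and no tested gene overlaps it. SGPL1 was the member with the highest RPKM in both conditions, at 8.48 ± 0.199 with TGF-beta and 4.64 ± 0.248 in vehicle.

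SGPP1, an S1P phosphatase of the endoplasmic reticulum, measured 25.4, 24.4 and 24.0 CPM in TGF-beta replicates 1, 2 and 3, against 34.2, 28.4 and 30.4 CPM in vehicle replicates 1, 2 and 3. It was lower in all TGF-beta libraries, with a log2 fold change of -0.33 (SE 0.071). SGPP1 lies on hg38 chromosome 14, 63684214 to 63728039 (ENSG00000126821), and SGPP2 on chromosome 2, 222424517 to 222560948 (ENSG00000163082). SGPP2, its paralog, measured 9.07, 8.96 and 9.37 CPM in TGF-beta replicates 1, 2 and 3, against 34.5, 8.65 and 8.24 CPM in vehicle replicates 1, 2 and 3. Vehicle replicate 1 alone set the vehicle mean apart: the log2 fold change of -0.89 (SE 0.71) became 0.11 (SE 0.078) without that library. The SGPP2 reads of that library numbered 1447, beside 486 and 427 in the other vehicle libraries.

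Set against the degrading enzymes, the kinase transcripts were higher with TGF-beta. Summed kinase RPKM over summed lyase and phosphatase RPKM was 0.664, 0.668 and 0.732 in TGF-beta replicates 1, 2 and 3 and 0.239, 0.360 and 0.358 in vehicle replicates 1, 2 and 3. The low value of vehicle replicate 1 goes with its high SGPP2. Without SGPP2, SGPL1 and SGPP1 together measured 11.5 ± 0.220 RPKM with TGF-beta and 8.74 ± 0.643 RPKM in vehicle (SD, n = 3 each). These are ratios of transcripts and say nothing of enzyme activity or S1P itself.

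In the order of RPKM with TGF-beta, SGPL1 (8.48) was followed by SPHK1 (7.42), S1PR3 (5.21), SGPP1 (3.07), S1PR5 (2.27), SPHK2 (1.30), S1PR2 (1.17), SGPP2 (1.13), S1PR1 (0.163) and S1PR4 (0.136). Neighbours from SGPL1 down to SPHK2 had ranges that did not overlap, whereas SPHK2 with S1PR2, S1PR2 with SGPP2, and S1PR1 with S1PR4 overlapped. For vehicle the order was SGPL1 (4.64), SGPP1 (4.11), S1PR3 (3.36), SGPP2 (2.25), SPHK2 (1.93), SPHK1 (1.45), S1PR2 (0.784), S1PR1 (0.414), S1PR4 (0.207) and S1PR5 (0.0632). There, SGPL1 overlapped SGPP1, and SGPP2 overlapped every member from SGPL1 to SPHK1. The place of SGPP2 in vehicle rests on vehicle replicate 1, at 4.54 RPKM. In vehicle replicates 2 and 3 it was at 1.13 and 1.09 RPKM, below SPHK1 at 1.49 and 1.62. S1PR5 was the lowest member in vehicle and the fifth in order with TGF-beta. Its mean RPKM exceeded that of 49.7% of tested protein-coding genes with TGF-beta and of 5.79% in vehicle. The deposited S1PR2 row has a length of 1173 bases, so its RPKM depends on a short gene model.

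Genes around these members were read from 6 lists covering 50 genes, of which 46 were tested. With the edgeR fit over all genes, 13 were higher, 16 lower and 17 not called, with a median log2 fold change of -0.01, as over all genes. Of all genes tested, 40.1% were called, 19.7% higher and 20.4% lower. Those shares also stand beside the counts of each list below, and nothing is read from these counts. The higher count was 6 with library totals alone, 6 in limma on RPKM, and 7 on leaving out vehicle replicate 2, vehicle replicate 3 or any 1 of the TGF-beta replicates.

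S1P export and carriage genes moved both ways, with 2 of 6 higher and 2 lower; the higher count was 1 with library totals alone and in limma, and 0 on leaving out any library but vehicle replicate 1, and the lower count was 1 in limma, where SPNS2 fell under the minimum RPKM. SPNS2, the main S1P exporter of endothelium, averaged 1.36 ± 0.225 CPM with TGF-beta and 2.6 ± 0.725 CPM in vehicle, a log2 fold change of -0.96 (SE 0.22; adjusted p = 0.00701 by edgeR). ABCA1, a lipid exporter, averaged 58.0 ± 2.92 CPM with TGF-beta and 31.3 ± 9.23 CPM in vehicle, but its adjusted p of 0.0311 by edgeR was 0.0801 without a filter and 0.0555 to 0.0962 with 1 library left out, other than vehicle replicate 1. ABCC1, the most abundant of them, averaged 145 ± 1.33 CPM with TGF-beta and 130.3 ± 6.44 CPM in vehicle, with a log2 fold change of 0.16 that was 0.03 without TMM; the call was lost there, in limma, and on leaving out any library but vehicle replicate 1.

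Of the ceramidases, which release sphingosine from ceramide, 0 of 4 tested were higher and 2 were lower. ASAH1, the lysosomal acid ceramidase and the most abundant, averaged 91.3 ± 0.628 CPM with TGF-beta and 114 ± 13.8 CPM in vehicle, a log2 fold change of -0.32 (SE 0.076). For ACER2, a Golgi ceramidase, the log2 fold change was -0.73 (SE 0.19), and the call was lost without vehicle replicate 2 (-0.61) or TGF-beta replicate 1 (-0.66) or 2 (-0.70).

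Lipid phosphate phosphatases and hexadecenal oxidation were lower in 3 of 4 genes and higher in 1. ALDH3A2, the dehydrogenase that oxidises the hexadecenal left when SGPL1 cleaves S1P, measured 21.6, 19.7 and 21.0 CPM in TGF-beta replicates 1, 2 and 3, against 52.3, 66.0 and 65.4 CPM in vehicle replicates 1, 2 and 3. Its log2 fold change was -1.56 (SE 0.092; adjusted p = 2.29e-06 by edgeR), opposite in sign to that of SGPL1. PLPP3, a surface phosphatase of S1P and related lipids, averaged 6.12 ± 0.232 CPM with TGF-beta and 13.2 ± 3.54 CPM in vehicle (log2 fold change -1.12, SE 0.21). PLPP1 was higher at 0.37 (SE 0.11), a call lost with library totals alone (0.24), in limma, and on leaving out any library but vehicle replicate 1. PLPP2, at -0.69 (SE 0.21), also lost its call on leaving out any library but that one.

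De novo ceramide synthesis had 7 of 16 tested genes higher and 4 lower, where 19.7% of all genes were higher and 20.4% lower. With library totals alone the split was 4 higher and 6 lower, and in both limma fits 4 were higher and 3 lower. SPTSSB, a small subunit of serine palmitoyltransferase, measured 0.448, 0.706 and 0.490 CPM in TGF-beta replicates 1, 2 and 3, against 5.13, 6.69 and 7.12 CPM in vehicle replicates 1, 2 and 3, a log2 fold change of -3.50 (SE 0.19; adjusted p = 3.03e-07 by edgeR). The rise in DEGS2, a ceramide desaturase, was 0.59 (SE 0.12), and CERS2, the most abundant ceramide synthase, had a log2 fold change of -0.21 (SE 0.040). Beside DEGS2, the higher genes, not all of them enzymes, were ORMDL3 (0.47), KDSR (0.36), DEGS1 (0.32), CERS6 (0.29), ORMDL2 (0.20) and SPTLC1 (0.12). SPTLC1 lost its call with library totals alone, without a filter, in DESeq2 and in both limma fits. Its call was also lost on leaving out any library but vehicle replicate 1. CERS6 lost its call with library totals alone (0.16), without TGF-beta replicate 1 (0.26) and in both limma fits. For ORMDL2 the call was lost with library totals alone (0.07).

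In ceramide use and recycling, 2 of 11 genes were higher and 4 lower, and with library totals alone 0 were higher and 6 lower. UGCG, which makes glucosylceramide, measured 54.5, 55.1 and 51.5 CPM in TGF-beta replicates 1, 2 and 3, against 160.2, 167 and 171 CPM in vehicle replicates 1, 2 and 3, a log2 fold change of -1.63 (SE 0.047; adjusted p = 2.92e-09 by edgeR). SMPD3, the neutral sphingomyelinase 2 gene, was lower, at -1.36 (SE 0.12). SGMS1 (0.22, SE 0.079) and SMPD4 (0.13, SE 0.044) were the higher genes, and both lost their calls with library totals alone (0.09 and 0.01), in limma, and in at least 4 of the 6 fits that left out 1 library.

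The lysophosphatidic acid (LPA) receptors LPAR1, LPAR2 and LPAR3 are the closest relatives of the S1P receptors. The list of LPA genes also held more distant receptors, LPAR5 among them. Of 5 genes tested in that list, LPAR5 was higher and LPAR1 lower. LPAR5 measured 23.2, 25.7 and 26.2 CPM in TGF-beta replicates 1, 2 and 3, against 2.15, 3.42 and 2.82 CPM in vehicle replicates 1, 2 and 3, a log2 fold change of 3.15 (SE 0.14; adjusted p = 2.56e-07 by edgeR). The LPAR1 values were 40.4, 41.4 and 41.9 CPM with TGF-beta and 68.8, 95.2 and 95.5 CPM in vehicle, a log2 fold change of -1.07 (SE 0.13; adjusted p = 0.00126 by edgeR). LPAR2, LPAR6 and ENPP2, which encodes the enzyme that makes LPA, were not called, and LPAR3 and LPAR4 were too scarce to test.

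**Figure D4:**
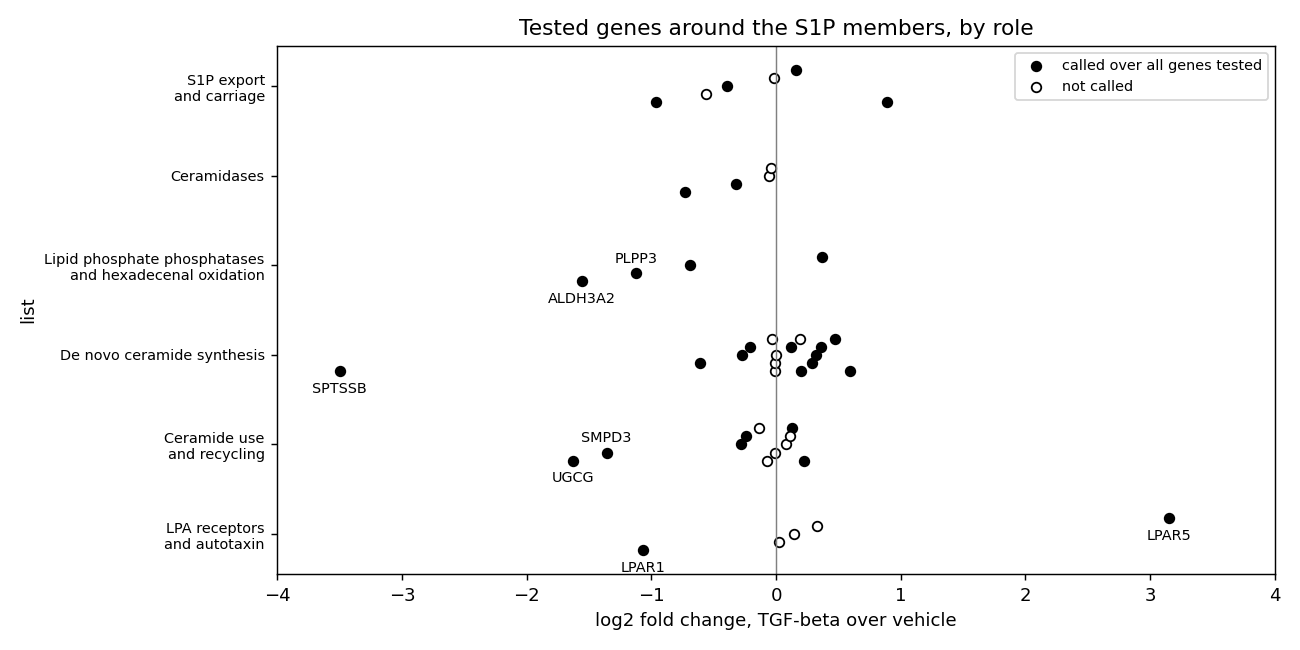
Fitted log2 fold change, TGF-beta over vehicle, of the tested genes in each of the 6 lists, with filled points called over all genes tested and genes past an absolute value of 1 named. SPTSSB (-3.50), UGCG (-1.63) and ALDH3A2 (-1.56) lie furthest to the left and LPAR5 (3.15) furthest to the right, while most genes lie close to 0.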

How the data were processed

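RNA sequencing of 6 H69 libraries was read from 1 deposited table. Per the submitters' processing notes, the tools were bcl2fastq, STAR 2.6.1 and featureCounts of Subread, with build hg38; how strand and multi-mapped reads were treated, and the annotation release, are not given in the sources used here. The deposited count columns hold whole reads per gene. The deposited RPKM are scaled to gene length and to a larger library total, without a TMM factor, and are used to compare levels between genes. The table's counts make up 43.2 ± 0.0623% of that total in TGF-beta and 42.0 ± 0.126% in vehicle libraries (SD, n = 3 each). In R 4.3.3, edgeR 4.0.16 fitted all counts with TMM scaling, filterByExpr with a minimum count of 10, and its quasi-likelihood test in robust mode, with Benjamini-Hochberg adjustment over 20992 genes and a threshold of 0.05. Each SE was derived as the size of the log2 fold change over the root of F. The same steps were also run on simulated counts in which 200 genes were changed. Far more genes were called in the data, so that run does not test the scaling. CPM use the TMM scaling, and mean ± SD is over 3 libraries.

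The members and lists were chosen with earlier results of these data known. Named genes are the members, the called list genes with the largest rise and fall, the most abundant gene of each list, 3 TGF-beta response genes, nearest and overlapping genes of members, and the 5 profiles closest to S1PR5 (log2 CPM with a prior count of 2). PLPP2, PLPP3, SMPD3, the markers named and the other higher genes of de novo ceramide synthesis were added after their values were seen. Alternatives were RLE scaling, library totals, no filter, at least 1 CPM in 3 libraries, DESeq2 1.42.0, limma 3.58.1 on RPKM with a pseudocount of 1 or 0.1 (mean RPKM 0.5 or more), a replicate block, and each library left out. The log2 values were computed from the deposited RPKM. Promoters are RefSeq's, strands are from GENCODE 29, and protein sequences are not used here. A list of genes that act below the receptors and a TGF-beta response gene are not reported here.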

Additional observations from a re-analysis of the deposited data

How the results depend on the processing

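Of the 10 members, 5 were higher and 3 lower in the main fit and in 10 of the 14 alternatives. Without TGF-beta replicate 2 or 3 the count of higher members was 4, as S1PR2 lost its call. In limma on RPKM the count of lower members was 2, because S1PR1 fell under the minimum RPKM. The counts of higher genes and lower genes over the table were 4145 and 4278. With library totals alone they were 2698 and 7282, and the higher count was 2419 on log2(RPKM + 1) and 2411 on log2(RPKM + 0.1). With 1 library left out, the higher and lower counts ran from 3204 to 5428 and from 3055 to 5556. For the other pathway genes, the higher count was 13, and 6 with library totals alone, 6 in both limma fits, and 7 to 13 with 1 library left out. With library totals alone, SPTLC1 was at -0.01 (SE 0.044) on the log2 scale, so its small rise was gone. That scaling moved the median log2 fold change of all genes from -0.01 to -0.14. What else moved the counts was not tested. The order of the members by RPKM was the same for all 10 when recomputed from counts, length and TMM scaling.

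Replicate numbers are shared by the conditions. The deviations of same-numbered libraries correlated at 0.0652, 0.0623 and 0.0129, and those of differently numbered libraries at -0.0702 to 0.0136. With 3 libraries per condition, values this small cannot tell whether libraries were paired. The main fit used the condition alone, and the replicate number was a block only in an alternative. With the replicate block, 4247 genes were higher and 4330 lower, 5 members were higher and 3 lower, and 13 other pathway genes were higher and 16 lower. Depth limits S1PR4 and the vehicle level of S1PR5, at 15 to 43 reads.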

Other observations

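SGPP2 in vehicle replicate 1 exceeded the mean of vehicle replicates 2 and 3 by 2.03 on the log2 CPM scale, and only 0.143% of tested genes had a higher value of that difference. For the other members the same difference ran from -0.31 (SPHK1) to 0.59 (S1PR4), and 4.4% of tested genes were higher than S1PR4. This compares single libraries of the vehicle condition and uses no TGF-beta library.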
